A study of Mus musculus with 74 samples.

Results

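Solute carriers are membrane proteins that move nutrients, metabolites, ions and metals across the plasma membrane and the membranes of organelles. The genes described here were chosen by name and level: symbols beginning with Slc and a digit, without the mitochondrial Slc25 family, whose brightest probe had a mean log2 intensity above 7.5 in at least 1 of 37 conditions. Of 310 such symbols with a probe, 129 were chosen, out of 13817 genes tested. They belong to 43 families, and 4 of them (*Slc9a3r1*, *Slc4a1ap*, *Slc7a6os* and *Slc2a4rg-ps*) carry the name but do not encode transporters. By substrate, 25 were grouped under metal ions, 18 under amino acids and peptides, 18 under inorganic ions and pH, 16 under carboxylates, lipids and organic ions, 14 under nucleosides and vitamins, 13 under nucleotide sugars and acetyl-CoA, 12 under sugars and polyols, and 9 under other or unknown substrates.

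Since the level limit chose the genes, a gene that passed it in few conditions had to vary. Above the limit in all 37 conditions were 61 genes, in 1 to 5 conditions 19, and in 1 condition only 5. *Slc40a1* was above the limit in naive cells alone, so its fall in culture is a description and not a test. Likewise, a gene below the limit in naive cells was chosen through cultures where it was higher, so its rise is a description. *Slc16a3*, *Slc35d3*, *Slc30a2*, *Slc39a8*, *Slc7a3*, *Slc6a9*, *Slc1a4*, *Slc2a6* and *Slc9b2* are among these genes, with naive means of 6.40 to 7.36. Nearest inside the limit were *Slc6a8* with a highest condition mean of 7.51, *Slc27a1* with 7.52 and *Slc20a2* with 7.57. Nearest outside were *Slc38a4* with 7.48, *Slc6a13* with 7.46 and *Slc6a18* with 7.44. Of the transporters listed as known from T cells, *Slc7a1*, *Slc7a11* and *Slc16a1* stayed below the limit with highest condition means of 7.20, 7.08 and 6.99, and *Slc7a5* was not analysed here.

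The cells were naive CD4+ CD62Lhi T cells from Balb/c mice of 5 to 8 weeks, magnetically sorted from pooled spleen and lymph node cells, and cultured for up to 120 h. All cultures were stimulated through the T cell receptor with anti-CD3 and anti-CD28. Th1 cells received IL-12 and anti-IL-4, Th2 cells IL-4 with anti-IL-12 and anti-IFN-γ, and Th1/2 hybrid cells both IL-12 and IL-4. Th0 cells received antibodies against IL-12, IFN-γ and IL-4 and no polarizing cytokine. An array was run per culture and time in each of 2 experiments, at 3, 6, 12, 24, 35, 48, 73, 96 and 120 h, with naive cells at 0 h, giving 74 arrays.

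Resting T cells need little import, while a dividing T cell takes up glucose, amino acids, nucleosides, folate and iron to build new biomass. Glucose enters through facilitated transporters of the Slc2 family, and lactate leaves through Slc16 carriers. Large neutral amino acids enter through light chains of the Slc7 family that need the Slc3a2 heavy chain, glutamine and small amino acids enter through Slc1 and Slc38 carriers, and zinc is moved into the cytosol by Slc39 proteins and out of it by Slc30 proteins.

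Differences are given on the log2 scale with limma's standard error (SE) and adjusted p. Against naive cells a gene was called to rise or fall at an adjusted p under 0.05 and at least a 2-fold difference, and between cultures at 1.5-fold. The times were pooled into an early window (3 to 12 h), a middle window (24 to 35 h) and a late window (48 to 120 h). Every comparison with naive cells rests on the same 2 naive arrays, so the windows are not independent of each other. The SE pools the spread within all 37 conditions, so it can be smaller than the gap between the naive arrays of a gene. The 8 late arrays of a culture come from 2 experiments, so an SE over them can be too small. In RNA from a whole culture, fewer cells of a type and less RNA per cell cannot be told apart.

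The T cell genes *Cd3e* and *Cd3g* had condition means of at least 13.1 on the log2 scale throughout, and read 14.7 and 14.5, and 15.2 and 15.1, in the naive arrays. *Cd4* read 9.87 and 9.25 in naive cells, with condition means of 8.20 to 9.63 in culture. *Cd28* read 11.8 and 11.0 in naive cells, with condition means of 10.2 to 12.2 in culture. Condition means of *Cd8a* stayed between 6.23 and 6.63, below the median of all values, although those of *Cd8b1* were 11.3 to 12.5 in culture. The naive arrays also held RNA of myeloid marker genes. *Lyz2* read 9.49 and 10.0 in naive cells, 6.37 to 9.50 in the early window and 6.01 to 6.46 in the late window, and *Csf1r* read 7.74 and 8.88 in naive cells and at most 7.38 in culture. Over the 4 listed myeloid markers the summed linear intensity was 1169 and 1774 in the naive arrays, 378.8 to 1121 in the early window and 340.8 to 391 in the late window. Condition means of *Itgam*, a defining marker, stayed at 6.30 to 6.53, below the median of all values. The B cell marker *Cd79b* read 9.93 and 9.27 in naive cells and 7.14 to 9.34 in the late window. *Ms4a1*, another B cell marker, read 7.19 and 7.06 in naive cells, with condition means of 6.47 to 7.23 in culture. The part of other cells in the falls described below was not tested. On the array of Th0 cells at 96 h in experiment 2, 10 of the 129 genes departed at least 2-fold from the mean of the other cultures at that time, the most of any array. The array of Th1/2 cells at 12 h in experiment 1 had 5 such genes against at most 1 on the other arrays of 12 h, although up to 6 departed on arrays of later times. All named differences were called without these 2 arrays too.

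In the early window 17 of the 129 genes rose and 15 fell. Over all genes tested, 6.19% rose and 6.91% fell. Among the 9044 genes with a condition mean above the same level limit, 9.45% rose and 10.6% fell, against 13.2% and 11.6% of the solute carriers. In the middle window 19 rose and 19 fell, against 10.5% and 8.99% of all genes and 16% and 13.7% of genes above the limit. Both solute carrier shares were then 14.7%, so they lay near those of equally bright genes. In the late window 17 rose and 15 fell, against 7.56% and 5.86% of all genes and 11.5% and 8.95% of genes above the limit. In all, 53 genes (41.1%) were called in at least 1 window and 76 in none, against 26.2% of all genes and 40% of genes above the limit called in at least 1. Called higher in all windows were 6 genes (*Slc38a1*, *Slc6a9*, *Slc1a4*, *Slc31a1*, *Slc19a2* and *Slc2a6*), and called lower in all windows were 8. Averaged over the cultures, 34 genes were highest in naive cells, 46 in the early, 10 in the middle and 39 in the late window. The windows hold unequal numbers of times. Neither these counts nor those of genes called in all windows were computed over all genes, so they describe the listed genes only.

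**Figure D1:**
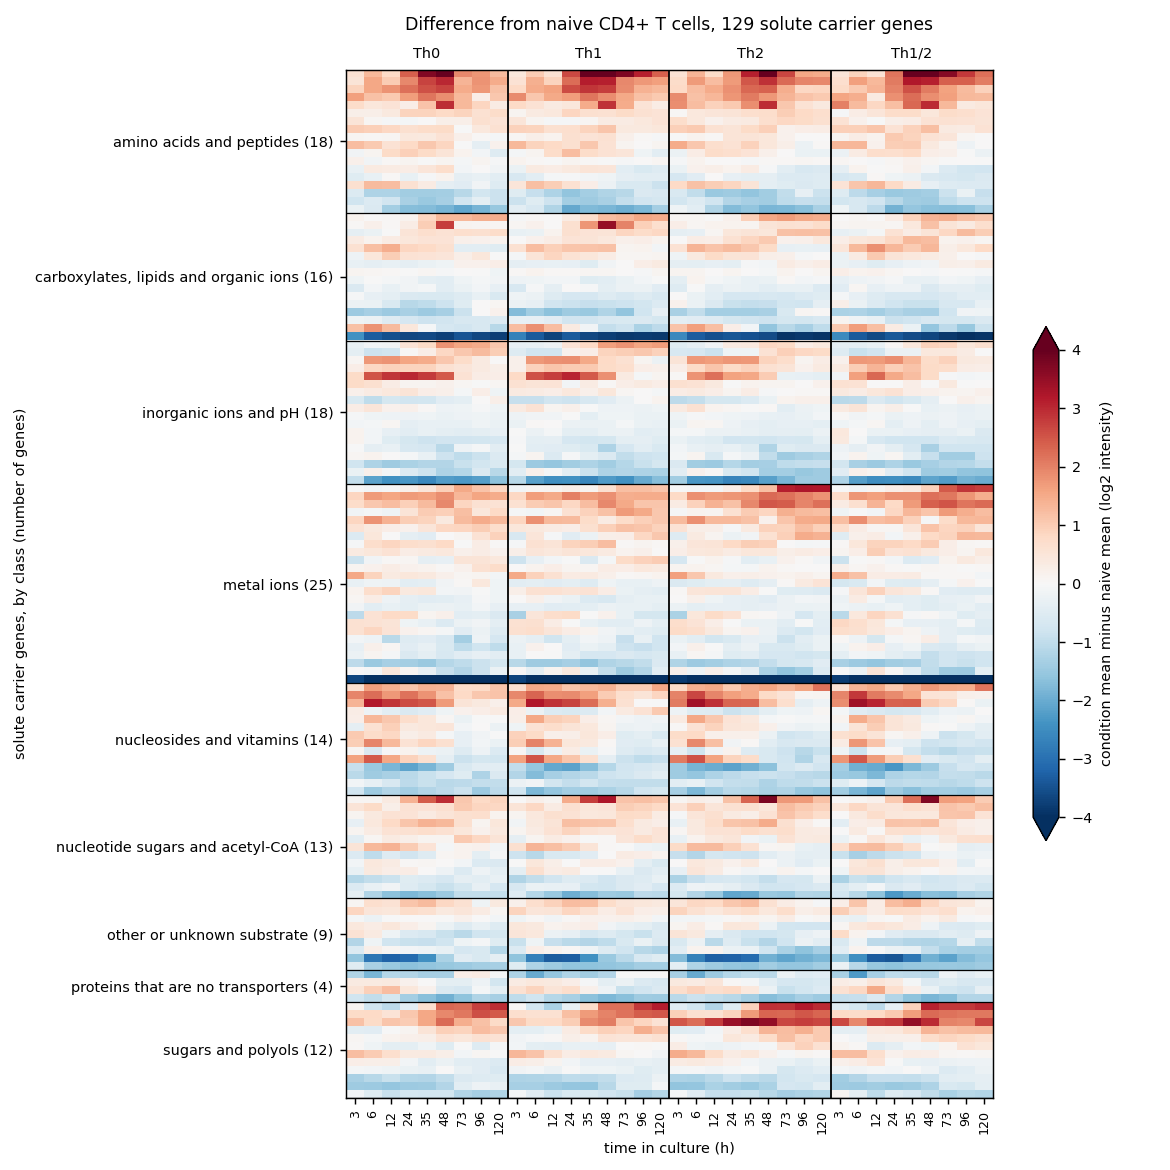
Each row is 1 of 129 solute carrier genes, grouped by substrate and sorted within a group by the late difference, and each column is a culture and time. Colour gives the mean of 2 arrays minus the naive mean in log2 intensity, cut off at 4 in either direction. *Slc40a1* is the dark blue row of the metal ions, with a late difference of -4.71, and *Slc16a5* that of the carboxylates, with -3.79.

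**Figure D2:**
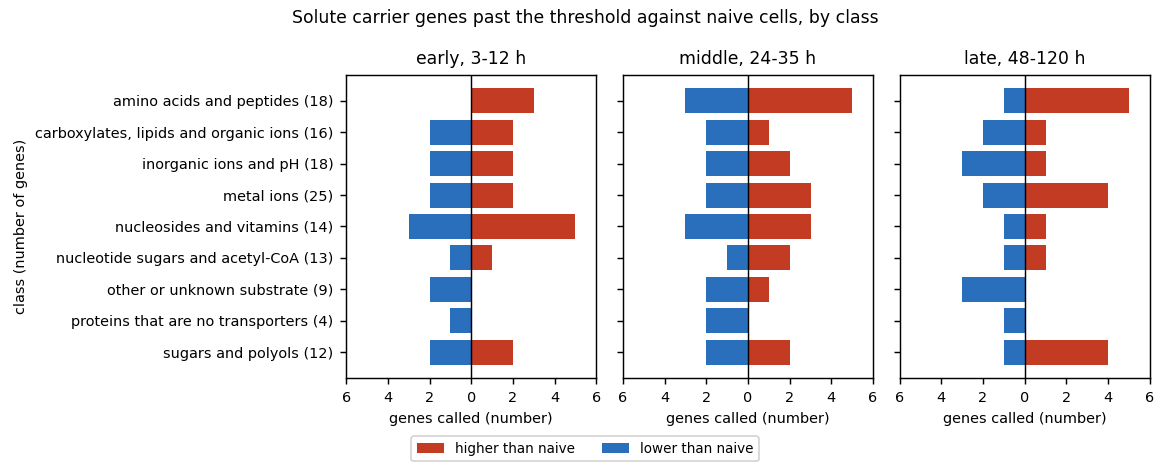
Bars count the genes of each class called higher (right) or lower (left) than naive cells in the 3 windows. Nucleosides and vitamins had 5 of 14 genes called higher early and 1 late, and sugars and polyols had 2 of 12 early and 4 late. Of genes above the level limit, 9.45% were called higher early and 11.5% late, and differences between classes were not tested.

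The class counts below stand beside shares of genes above the level limit that rose and fell. These were 9.45% and 10.6% early, 16% and 13.7% in the middle window, and 11.5% and 8.95% late. The classes are small, and whether they differ from these shares was not tested. Of 14 carriers of nucleosides and vitamins, 5 rose and 3 fell in the early window, 3 rose and 3 fell in the middle window, and 1 rose and 1 fell in the late window. The median difference of the class went from 0.56 early to 0.22 in the middle window and -0.40 late, while that of all genes stayed between 0.01 and 0.04.

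*Slc19a1*, the reduced folate carrier, on chromosome 10 (77032269 to 77050432, GRCm38.p6), had log2 intensities of 9.39 and 9.17 in the naive arrays. The 24 early arrays ran from 10.0 to 12.8 with a median of 12.2, all above naive cells. The rise was 2.64 ± 0.24 (SE, adjusted p = 2.4e-12), and it was 2.42 ± 0.25 in the middle window and 0.49 in the late window. Averaged over the cultures the level was highest at 6 h with 12.6 and had come back to 9.20 at 120 h.

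*Slc29a1*, the equilibrative nucleoside transporter ENT1, read 8.89 and 9.04 in naive cells and 10.4 to 12.0 in the early window (median 11.1). It rose by 2.13 ± 0.19 early (adjusted p = 8.2e-13) and by 1.76 ± 0.19 in the middle window, with no overlap with naive arrays. *Slc5a6*, which carries biotin and pantothenate, read 9.64 and 9.73 in naive cells and 10.8 to 12.4 in the early window (median 11.6). Its rise of 1.96 ± 0.19 (adjusted p = 1.4e-11) was no longer there in the late window, where the difference was -0.70. *Slc19a2*, a thiamine carrier, kept its rise, with 1.21 early, 1.23 in the middle window and 1.40 late. Its naive arrays lay apart, at 8.46 and 9.05.

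The falls of this class were led by *Slc44a2*, a choline transporter-like protein. It read 13.7 and 13.5 in naive cells and 11.1 to 11.9 in the middle window (median 11.6), a difference of -1.999 ± 0.12 (adjusted p = 3.4e-18) without overlap, and the late difference was -0.85. *Slc28a2* and *Slc28a2b*, concentrative nucleoside carriers, fell by 1.42 and 1.44 early. They are near-identical neighbouring copies whose probes may read both.

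Of 18 carriers of amino acids and peptides, 3 rose early, 5 in the middle window and 5 late, while none fell early, 3 in the middle window and 1 late. The class median was 0.27 early, 0.67 in the middle window and 0.17 late.

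*Slc7a3*, a carrier of cationic amino acids such as arginine and lysine, on chromosome X (101079146 to 101090452), read 7.03 and 7.06 in naive cells. The 16 middle arrays ran from 8.50 to 12.0 with a median of 9.69, all above naive cells, and the rise was 3.03 ± 0.35 (adjusted p = 4.4e-10). The late rise was 2.94 ± 0.34, with arrays from 8.21 to 12.1, and the mean over cultures was highest at 48 h with 11.7. A second expressed *Slc7a3* probe stayed dim, with a highest condition mean of 7.37 and a middle difference of 0.18.

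*Slc6a9*, the glycine transporter GlyT1, read 6.88 and 6.73 in naive cells and 8.21 to 10.6 in the middle window (median 8.92). It rose by 1.10 ± 0.30 early, 2.43 ± 0.31 in the middle window (adjusted p = 5.5e-09) and 2.19 ± 0.30 late, again with a second probe that stayed dim at 6.57 or less. *Slc1a4*, which exchanges alanine, serine and cysteine, read 6.41 and 6.52 in naive cells and 7.95 to 9.64 in the middle window (median 8.74). Its rises were 1.23 ± 0.25, 2.35 ± 0.26 and 1.61 ± 0.25 in the successive windows.

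*Slc38a1* and *Slc38a2* carry glutamine and other small neutral amino acids. *Slc38a1* read 8.21 and 7.38 in naive cells and 9.17 to 10.2 in the middle window (median 9.78), and it rose by 1.34, 1.94 and 1.34. Its early and late arrays overlapped those of naive cells. *Slc38a2* read 13.0 and 13.8 in naive cells and 11.4 to 12.3 in the middle window (median 11.9), a difference of -1.46 ± 0.18 (adjusted p = 3.3e-09). A second bright probe of *Slc38a2*, with a mean of 10.9 over all arrays, did not fall with it and differed by 0.42 early, 0.28 in the middle window and -0.13 late.

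Other amino acid carriers known from T cells stayed under the 2-fold limit in all windows. *Slc1a5*, a glutamine carrier, differed from naive cells by 0.99 ± 0.23 early and 0.14 late, and *Slc3a2*, the shared heavy chain, by 0.91 ± 0.15 early and 0.52 late. *Slc7a6*, a light chain partner of that heavy chain, differed by 0.98 ± 0.15 early and -0.48 late. The taurine carrier *Slc6a6* stayed between 11.45 and 13.01 on all culture arrays and differed by 0.06 early, 0.30 in the middle window and -0.28 late. *Slc38a10* fell by 1.75 in the middle window and by 1.70 ± 0.24 late (adjusted p = 9.2e-08 in limma). The mean of its probes gave a late difference of only -0.42, and its naive arrays lay apart, at 9.40 and 10.4. *Slc15a3*, a peptide and histidine carrier of endolysosomes, was high at 48 h with a mean of 10.1, against 7.15 in naive cells and 7.52 at 120 h.

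Of 12 sugar and polyol genes, 2 rose and 2 fell in the early window, 2 rose and 2 fell in the middle window, and 4 rose and 1 fell in the late window. *Slc2a1*, the glucose transporter GLUT1, on chromosome 4 (119108745 to 119137330), read 10.84 and 10.96 in naive cells. The 32 late arrays ran from 12.6 to 13.7 with a median of 13.2, all above naive cells. The rise was 2.26 ± 0.22 late (adjusted p = 1.1e-11) after 1.36 ± 0.23 in the middle window and 0.71 early.

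*Slc2a3*, the high-affinity transporter GLUT3, on chromosome 6 (122727809 to 122802363), was called in the late window only. It read 11.1 and 11.2 in naive cells, its mean over cultures was 10.0 at 12 h, and the late arrays ran from 13.0 to 14.5 with a median of 14.0. The early difference of -0.69 did not pass the 2-fold limit, and the late rise was 2.77 ± 0.39 (adjusted p = 9.7e-08). Neither *Slc2a1* nor *Slc2a3* was called between cultures.

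*Slc2a6*, the lysosomal GLUT6, read 6.95 and 7.14 in naive cells. Its rises were 1.71 ± 0.26 early, 2.37 ± 0.27 in the middle window and 1.96 ± 0.26 late, and its levels in the single cultures are given further on. *Slc50a1*, a sugar efflux carrier, fell by 1.16 ± 0.11 early and by 1.01 in the middle window, and *Slc2a9*, a urate carrier, fell by 1.44 and 1.47.

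Among carriers of carboxylates, lipids and organic ions, 2 of 16 rose and 2 fell early, 1 rose and 2 fell in the middle window, and 1 rose and 2 fell late. *Slc16a3*, the lactate exporter MCT4, read 6.45 and 6.52 in naive cells and 7.42 to 8.40 in the late window (median 7.85), all above naive cells. It rose by 1.39 ± 0.22 late (adjusted p = 7.4e-07 in limma), with a difference of 0.04 early. No early array of *Slc16a3* read above 6.76, so it was chosen through later cultures, and its rise is a description and not a test. *Slc10a3*, an orphan of the bile acid carrier family, rose by 1.37 ± 0.19 early and fell by 1.08 ± 0.19 late. *Slc17a9*, a vesicular nucleotide carrier, fell by 1.37 ± 0.10 early, and *Slc22a5*, the carnitine carrier, differed by -0.93 in the middle window, under the limit.

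*Slc16a5*, a monocarboxylate carrier family gene on chromosome 11 (115462405 to 115474398), fell furthest of this class. It read 10.7 and 10.4 in naive cells, 7.51 to 8.44 at 3 h and 6.47 to 7.16 in the late window (median 6.70). The differences were -3.17 ± 0.16 early, -3.51 ± 0.17 in the middle window and -3.79 ± 0.16 late, and no culture array reached the naive level. It was above the level limit in 5 of 37 conditions, naive cells and the cultures at 3 h. It was thus chosen through its level at the start, and its fall is a description and not a test.

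Among 25 metal ion genes, 2 rose and 2 fell early, 3 rose and 2 fell in the middle window, and 4 rose and 2 fell late. *Slc40a1*, which encodes ferroportin, the iron exporter, on chromosome 1 (45908070 to 45926532), read 10.5 and 11.7 in naive cells. It read 7.20 to 7.41 at 3 h and 6.15 to 6.61 in the late window (median 6.36), below the median of all values. The differences were -4.21 early, -4.67 in the middle window and -4.71 late, each with an SE of 0.13. This pooled SE does not measure the spread of the naive arrays, which lay much further apart. Ferroportin is known for its high expression in macrophages. At 3 h the myeloid marker *Lyz2* read 8.52 to 9.50 with a median of 8.93, against 9.49 and 10.0 in naive cells. *Csf1r* read 6.83 to 7.38 at 3 h with a median of 7.21, against 7.74 and 8.88 in naive cells. The part of myeloid cells in the fall was not tested. A second *Slc40a1* probe stayed dim, with a highest condition mean of 6.45, and differed by -0.02 in the middle window.

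*Slc31a1*, the copper importer CTR1, read 8.36 and 7.98 in naive cells and 8.64 to 10.1 in the early window (median 9.73). It rose by 1.39 ± 0.16, 1.79 ± 0.17 and 1.76 ± 0.16 in the successive windows, with no overlap with naive cells. The zinc importer *Slc39a6* read 10.4 and 10.5 in naive cells and 11.02 to 12.47 early (median 11.8), and it rose by 1.39 ± 0.15 early and 1.07 ± 0.16 in the middle window. *Slc39a7*, which releases zinc from the endoplasmic reticulum, differed by 0.01 early and -0.64 late, and *Slc30a5* by 0.62 early and -0.39 late.

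Late zinc carriers moved in both directions. *Slc39a4*, the zinc importer ZIP4, rose by 1.75 ± 0.15 and *Slc30a2*, which moves zinc into vesicles, by 1.77 ± 0.16 late. *Slc39a8* rose by 1.20 ± 0.19, with late arrays from 6.50 to 8.53 that overlapped naive cells at 6.69 and 6.54. Early arrays of *Slc30a2* and *Slc39a8* read at most 6.86 and 6.87, so both were chosen through later cultures and their rises are a description. *Slc30a1*, the zinc exporter of the plasma membrane, fell by 1.01 ± 0.27 late (adjusted p = 0.0017), with late arrays from 6.89 to 8.88 that overlapped naive cells at 8.31 and 8.69. *Slc11a2*, the iron importer DMT1, was not called in any window.

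Among 18 inorganic ion genes, 2 rose and 2 fell early, 2 rose and 2 fell in the middle window, and 1 rose and 3 fell late. *Slc9b2*, a sodium and proton exchanger, read 7.28 and 7.43 in naive cells and 8.58 to 10.4 in the middle window (median 9.42). It rose by 1.67 ± 0.16 early and 2.15 ± 0.17 in the middle window (adjusted p = 8.8e-15), with a late difference of 0.40. *Slc12a2*, which takes up sodium, potassium and chloride, rose by 1.24 ± 0.18 early and 1.64 ± 0.18 in the middle window.

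*Slc12a7*, a potassium and chloride exporter, read 10.5 and 9.84 in naive cells and 7.40 to 7.92 in the middle window (median 7.61). It fell by 1.94 ± 0.17, 2.51 ± 0.18 and 1.99 ± 0.17 in the successive windows, with no overlap with naive cells. *Slc4a2*, an anion exchanger, differed by -0.70 late, *Slc12a3* by 0.95 in the middle window, and the phosphate carrier *Slc20a1* by -0.996 ± 0.23 late, just under the 2-fold limit.

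Of 13 nucleotide sugar and acetyl-CoA genes, 1 rose and 1 fell early, 2 rose and 1 fell in the middle window, and 1 rose and 1 fell late. *Slc35d3* read 6.36 and 6.43 in naive cells and 7.06 to 10.5 in the late window (median 7.81), all above naive cells. It rose by 1.80 ± 0.22 late (adjusted p = 2.3e-09 in limma), and the mean over cultures was highest at 48 h with 9.81. No early array of *Slc35d3* read above 6.79, so it too was chosen through later cultures, and its rise is a description. *Slc35b3*, which carries the sulfate donor PAPS into the Golgi, read 13.3 and 13.4 in naive cells and 10.96 to 11.80 in the middle window (median 11.4), a difference of -1.94 ± 0.11. *Slc35b1* differed by at most 0.27 in any window, and *Slc35c1*, the GDP-fucose carrier, by -0.999 early, under the limit.

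Of 9 genes with other or unknown substrates, *Slc46a3*, a lysosomal membrane protein, changed most. It read 10.3 and 10.1 in naive cells and 6.74 to 8.31 in the middle window (median 7.08), a difference of -2.98 ± 0.18 (adjusted p = 2e-18) without overlap. Levels were higher again in the late window, from 8.04 to 10.2 (median 8.73), where it fell by 1.34 ± 0.17 and the arrays overlapped naive cells. *Slc49a4*, also lysosomal, fell by 1.02, 1.59 and 1.46. *Slc35e1*, *Slc66a2* and *Slc35e2* differed by less than 1 in every window. Of the genes that do not encode transporters, *Slc9a3r1*, a scaffold protein, fell by 1.55 ± 0.13 early and *Slc2a4rg-ps* by 1.52 ± 0.18 late. *Slc7a6os*, the neighbour of *Slc7a6* on the opposite strand, differed by 0.83 ± 0.25 early and -0.55 late, and *Slc4a1ap* was not called.

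**Figure D3:**
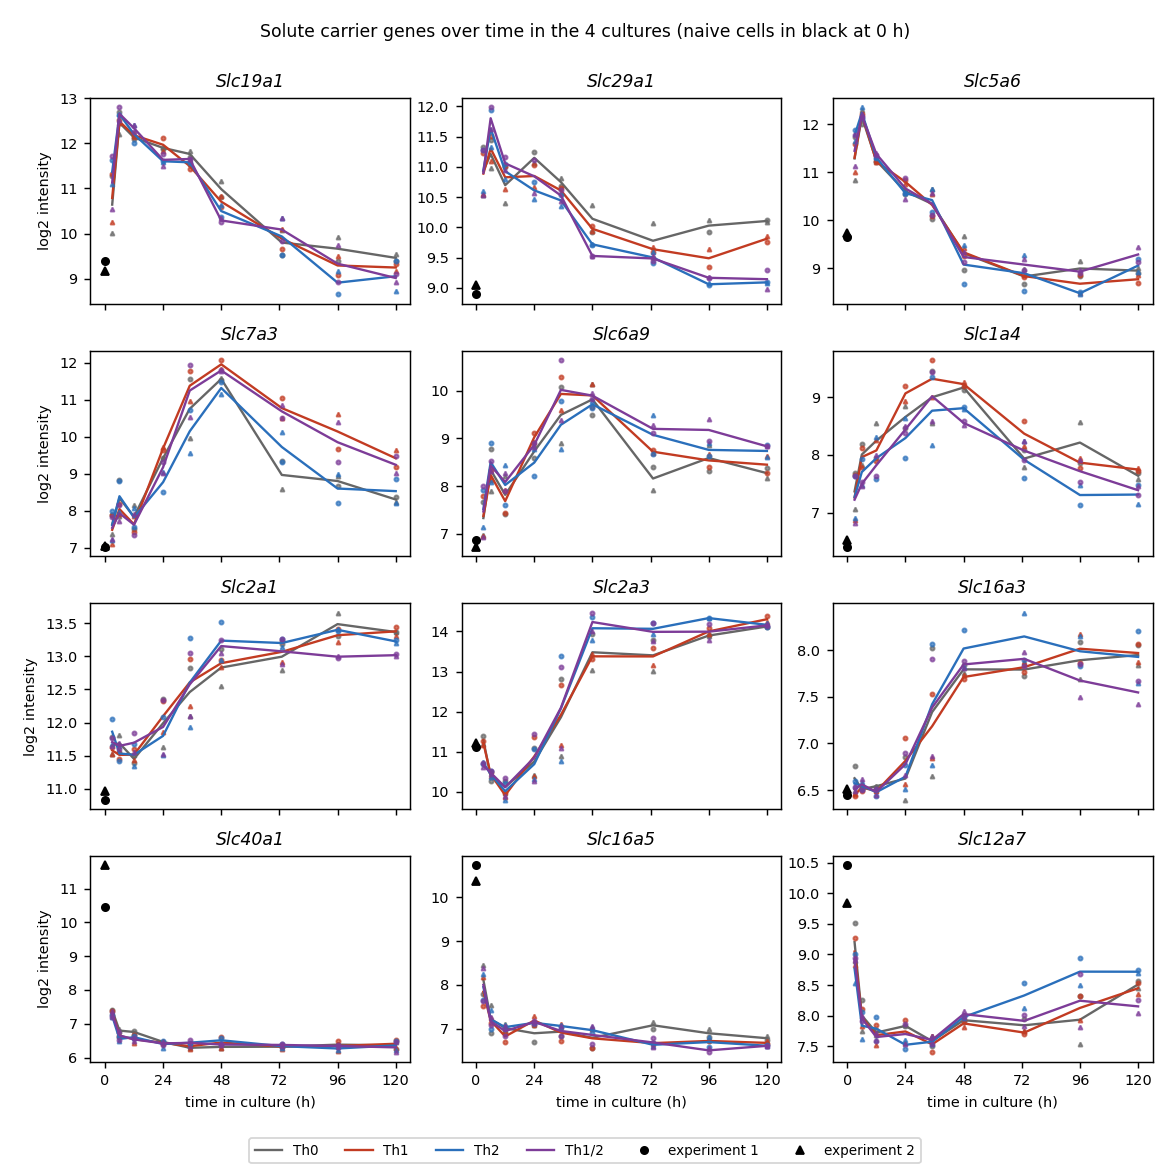
Log2 intensity against time in culture for 12 genes, with lines for the mean of each culture and points for the arrays of both experiments. The vitamin and nucleoside carriers in the top row were highest at 6 h, the amino acid carriers in the next row at 35 to 48 h, *Slc2a1*, *Slc2a3* and *Slc16a3* from 48 h on, and the genes of the bottom row were highest in naive cells.

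Genes that work with these carriers were listed separately, and 21 of 24 were tested. Of these, 6 rose and 2 fell early, 8 rose and 2 fell in the middle window, and 9 rose and 2 fell late. Over all genes the shares that rose and fell were 6.19% and 6.91% early, 10.5% and 8.99% in the middle window, and 7.56% and 5.86% late. *Asns*, which makes asparagine, rose by 5.39 ± 0.30 late, *Bcat1*, which transfers amino groups from branched-chain amino acids, by 3.49 ± 0.27, and the transferrin receptor gene *Tfrc* by 2.73 ± 0.21. *Mt1*, a zinc-binding metallothionein, rose by 4.65 ± 0.48 late. *Txnip*, an inhibitor of glucose uptake, fell by 5.33 in the middle window and by 2.27 ± 0.35 late. *Emb*, a chaperone of monocarboxylate carriers, fell by 1.39 ± 0.12 late, while its relative *Bsg* rose by 1.41 ± 0.22.

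Between cultures, 17 of the 129 genes (13.2%) were called in at least 1 of 6 comparisons, against 8.86% of all genes and 13.4% of genes above the level limit. In the late window, 6 genes were higher in Th1 than in Th2 cells and 3 were lower, against 2.89% and 2.66% of all genes, and 4.39% and 4.05% of genes above the level limit. Without the Th1 arrays of experiment 2 the counts were 6 higher and 7 lower, and 6 and 5 when Th2 arrays of experiment 1 were left out instead. These 9 genes lie in 7 of the 9 classes, and 3 of them belong to metal ions. The comparisons below share cultures and are not independent of each other.

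*Slc2a6*, on chromosome 2 (27021363 to 27028000), was higher in Th2 cells. The 8 late Th1 arrays ran from 7.57 to 9.39 with a median of 7.97 and the 8 late Th2 arrays from 9.50 to 10.6 with a median of 9.88. Every late Th2 array was above every late Th1 array. The difference of Th1 minus Th2 was -1.76 ± 0.18 (adjusted p = 1.2e-10), with -1.52 in experiment 1 and -2.01 in experiment 2.

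*Slc30a2*, on chromosome 4 (134343046 to 134354484), was also higher in Th2 cells, with late Th1 arrays from 7.32 to 8.23 (median 7.76) and late Th2 arrays from 7.74 to 10.4 (median 9.76). The overlap came from 48 h, where the Th2 mean was 7.94, whereas it was 9.83, 9.97 and 9.94 at 73, 96 and 120 h. The difference was -1.65 ± 0.11 (adjusted p = 6.7e-16) and was -1.65 and -1.64 in the experiments. *Slc39a4* had late Th1 arrays from 8.57 to 9.49 (median 8.89) and late Th2 arrays from 9.21 to 10.2 (median 9.87), which overlapped, and a difference of -0.87 ± 0.10 (adjusted p = 6.5e-09). With the mean of its probes the difference was -0.51 and was no longer called.

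Higher in Th1 cells was *Slc12a8*, of the cation and chloride carrier family, with late Th1 arrays from 8.59 to 8.97 (median 8.73) and late Th2 arrays from 7.12 to 8.07 (median 7.70). They did not overlap, and the difference was 1.10 ± 0.11 (adjusted p = 3.3e-11). *Slc46a3* had late Th1 arrays from 8.69 to 9.83 (median 9.33) and late Th2 arrays from 8.08 to 8.63 (median 8.22), again without overlap, and a difference of 1.01 ± 0.12 (adjusted p = 5.1e-09). *Slc7a3* had late Th1 arrays from 9.19 to 12.1 (median 10.6) and late Th2 arrays from 8.21 to 11.5 (median 9.16), which overlapped, and a difference of 1.03 ± 0.23 (adjusted p = 0.00068). With the mean of its probes that difference was 0.52 and was not called.

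*Slc17a6*, a vesicular glutamate carrier, was higher by 1.17 ± 0.19 in Th1 cells, but by 2.07 in experiment 1 and 0.26 in experiment 2. Its condition mean in Th1 cells was 10.1 at 48 h and 7.33 at 120 h, and the difference at 48 h was 3.39 and 2.51 in the experiments. It had shrunk to a mean of 0.38 at 96 h and -0.06 at 120 h, where the experiments went opposite ways, with 1.51 and -0.75 at 96 h and 0.78 and -0.90 at 120 h. *Slc11a2* was higher by 0.70 ± 0.09 and *Slc52a3*, a riboflavin carrier, by 0.63 ± 0.08. Without the Th1 arrays of experiment 2, *Slc11a2* was no longer called, with a difference of 0.55. Of the B cell markers with a probe, *Cd79b* was called lower by 0.84 in late Th1 than Th2 cells. *Ms4a1*, a dim marker, differed by -0.09 (Th1 minus Th2) and was not called. The part of B cells in these differences was not tested.

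**Figure D4:**
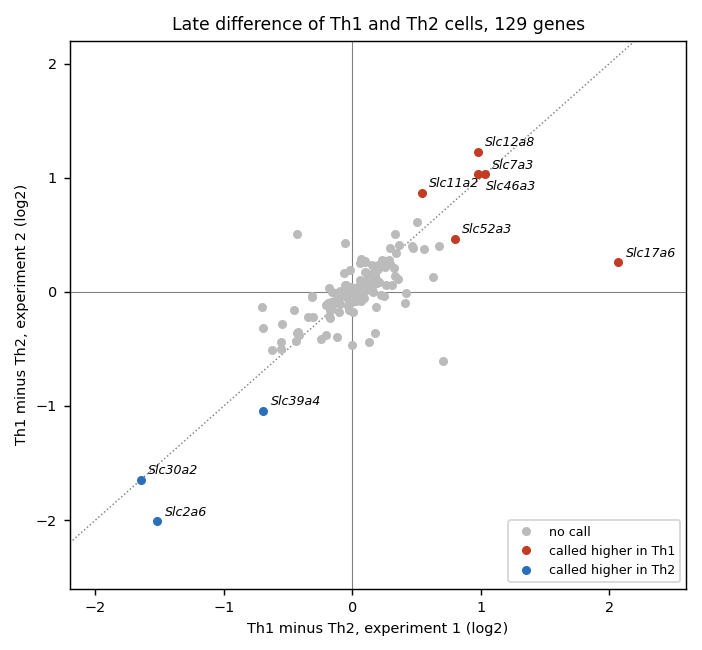
Late Th1 minus Th2 difference of 129 genes (log2) in experiment 1 on the horizontal and experiment 2 on the vertical axis, with the genes called in colour and the dotted line marking equal values. All 9 called genes had the same sign in both experiments, which is nearly given, since they were called on the mean of both. Of the 9, 6 passed the 1.5-fold limit in both experiments. *Slc17a6* lay far from the line, at 2.07 and 0.26.

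The promoters of *Slc2a6*, *Slc30a2*, *Slc12a8* and *Slc46a3* are shown, 4 of the 6 genes with a late difference between Th1 and Th2 cells of over 2-fold. The others, not shown, were *Slc7a3* and *Slc17a6*. IL-4, given to Th2 and Th1/2 cells, acts through STAT6, and IL-12 acts through STAT4. The promoters hold 250 bases before and 50 after a listed start of transcription (RefSeq, GRCm38.p6), on the strand of the gene. For *Slc12a8*, 1 of 3 listed start sites is shown. The start site listed for *Slc30a2* lies 420 bases inside the span of the gene given above, so the stretch shown lies within the gene and not before its outermost start. Capitals mark, on either strand, a STAT6-type site, TTCNNNGAA (a STAT site of the interferon-activated type), and TGCGCNC or TGCACNC (the core of the metal response element), each counted also where it overlaps another.
Slc2a6 promoter, chr2:27027949-27028248, minus strand: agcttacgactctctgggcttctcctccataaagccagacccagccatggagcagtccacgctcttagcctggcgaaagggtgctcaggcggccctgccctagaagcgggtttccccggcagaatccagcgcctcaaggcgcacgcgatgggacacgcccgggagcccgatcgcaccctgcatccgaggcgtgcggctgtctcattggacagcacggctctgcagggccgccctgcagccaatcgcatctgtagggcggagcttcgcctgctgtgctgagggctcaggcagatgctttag
Slc30a2 promoter, chr4:134343216-134343515, plus strand: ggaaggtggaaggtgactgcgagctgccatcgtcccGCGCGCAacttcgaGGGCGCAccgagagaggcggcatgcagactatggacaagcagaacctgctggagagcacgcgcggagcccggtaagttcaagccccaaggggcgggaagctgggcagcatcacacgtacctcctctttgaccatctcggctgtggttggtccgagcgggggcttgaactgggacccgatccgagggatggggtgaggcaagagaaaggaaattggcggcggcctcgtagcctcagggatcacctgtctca
Slc12a8 promoter, chr16:33517078-33517377, plus strand: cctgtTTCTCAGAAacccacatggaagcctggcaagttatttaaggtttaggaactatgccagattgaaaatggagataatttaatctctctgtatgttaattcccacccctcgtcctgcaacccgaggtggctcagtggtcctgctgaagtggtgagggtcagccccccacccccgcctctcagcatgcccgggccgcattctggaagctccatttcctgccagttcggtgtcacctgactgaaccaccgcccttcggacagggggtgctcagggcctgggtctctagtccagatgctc
Slc46a3 promoter, chr5:147894766-147895065, minus strand: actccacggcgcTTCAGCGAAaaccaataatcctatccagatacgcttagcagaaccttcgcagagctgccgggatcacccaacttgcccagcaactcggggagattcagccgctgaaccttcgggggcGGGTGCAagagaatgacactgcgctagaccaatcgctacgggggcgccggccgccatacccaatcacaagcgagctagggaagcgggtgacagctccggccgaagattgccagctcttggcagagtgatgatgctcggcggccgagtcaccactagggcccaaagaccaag
No promoter shown held a STAT6-type site, and that of *Slc2a6* held none of these letters. That of *Slc30a2* held TGCGCNC, read on the other strand, at -214 and -200, *Slc12a8* held TTCNNNGAA at -245, and *Slc46a3* held TTCNNNGAA at -238 and TGCACNC at -121, counted from the start site. Of all 32851 promoters listed, 6.95% held a STAT6-type site, 8.3% TTCNNNGAA, 15.4% TGCGCNC and 12.6% TGCACNC. Of 133 promoters of 100 solute carrier genes, 5.26%, 5.26%, 24.1% and 18.8% held them, and the solute carrier promoters had a mean GC content of 61.8% against 53.8%. The E-box CACGTG, which MYC binds, was in 14.3% of them and in 7.15% of all promoters. A match is a description of the letters and not of binding.

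Th1 and Th2 cells were each compared with Th0 cells, which had no polarizing cytokine. In the late window 7 genes were higher and 4 lower in Th2 than in Th0 cells, against 3.12% and 3.23% of all genes and 4.75% and 4.9% of genes above the level limit. Without the Th0 arrays of experiment 1 there were 6 higher and 9 lower, and without the Th2 arrays of experiment 2 there were 6 and 7. Higher in Th1 than in Th0 cells were 2 genes, against 0.999% of all genes, and none was lower, against 0.608%. Of genes above the level limit 1.53% were higher and 0.918% lower, and 1.55% of the solute carriers were higher. With limma, 19 solute carriers were lower there and 13 higher at an unadjusted p under 0.05, and none of the 19 passed both limits. Such unadjusted counts were not made over all genes, so no trend of the solute carriers can be read from them. Whether the counts of called genes differ between both comparisons with Th0 cells was not tested, and these comparisons share the Th0 arrays.

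Late Th0 arrays of *Slc2a6* ran from 7.79 to 9.63 (median 8.48) and overlapped those of Th2 cells, and the difference of Th2 minus Th0 was 1.51 ± 0.18. *Slc30a2* was higher in Th2 cells by 1.59 ± 0.11, *Slc39a4* by 1.28 ± 0.10, *Slc37a3*, of the sugar phosphate exchanger family, by 0.77 ± 0.09, and *Slc48a1*, a heme carrier, by 0.70 ± 0.10. The other two were *Slc35d3* and *Slc19a2*, each higher by 0.66 ± 0.15. Lower in Th2 cells were *Slc46a3* by 1.26 ± 0.12 and *Slc12a8* by 0.92 ± 0.11, both without overlap of arrays, and *Slc9b2* by 0.90 ± 0.11 and *Slc29a1* by 0.67 ± 0.13. With the mean of probes *Slc37a3* was at 0.47 and *Slc29a1* at -0.51, and *Slc29a1* was at -0.52 without the Th0 arrays of experiment 2, none of them called.

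Both genes higher in Th1 than in Th0 cells were already named. *Slc7a3* was higher by 1.16 ± 0.23 and *Slc17a6* by 1.03 ± 0.19, and the latter was 0.46 and not called without the Th1 arrays of experiment 1. With the mean of probes *Slc7a3* was at 0.58 and not called. Late means of *Slc7a3* were 9.41 in Th0, 10.6 in Th1, 9.54 in Th2 and 10.4 in Th1/2 cells.

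Th1/2 hybrid cells, which had both cytokines, were compared with each parent culture. Against Th1 cells 3 genes were higher and 5 lower, with 1.98% and 2.14% of all genes called. Of genes above the level limit 3% and 3.26% were called, against 2.33% and 3.88% of the solute carriers. Without the Th1 arrays of experiment 2, 5 genes were higher and 6 lower. Against Th2 cells 2 genes were higher and none lower, with 0.673% and 0.536% of all genes called. Of genes above the level limit, 1.03% were higher and 0.807% lower. Without the Th1/2 arrays of experiment 1, or without the Th2 arrays of experiment 2, 2 genes were lower. At an unadjusted p under 0.05 in limma, 13 solute carriers were lower and 5 higher than in Th2 cells. These unadjusted counts, too, were not made over all genes.

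The late Th1/2 arrays of *Slc2a6* ran from 8.91 to 10.1 (median 9.31), and the difference from Th1 cells was 1.25 ± 0.18 with overlapping arrays. *Slc30a2* ran from 7.58 to 9.73 (median 9.32) and was higher than in Th1 cells by 1.20 ± 0.11. *Slc39a4* ran from 9.51 to 10.2 (median 9.94), above every late Th1 array, with a difference of 0.93 ± 0.10, or 0.53 and no call with the mean of probes. None of the 3 was called between Th1/2 and Th2 cells.

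Lower in Th1/2 than in Th1 cells were *Slc17a6* by 1.10 ± 0.19, *Slc12a8* by 0.95 ± 0.11, *Slc46a3* by 0.91 ± 0.12, *Slc4a8*, a bicarbonate carrier, by 0.67 ± 0.09 and *Slc52a3* by 0.66 ± 0.08. Arrays did not overlap for *Slc12a8*, at 7.39 to 8.16 (median 7.78), nor for *Slc4a8*, at 7.65 to 8.26 in Th1/2 and 8.50 to 8.78 in Th1 cells. *Slc4a8* had late means of 8.74 in Th0 and 8.47 in Th2 cells, and its difference was -0.33 with the mean of probes and -0.55 without the Th1/2 arrays of experiment 2, neither called. Without the Th1 arrays of experiment 1 the *Slc17a6* difference was -0.53 and was not called. Higher in Th1/2 than in Th2 cells were *Slc7a3* by 0.85 ± 0.23 (adjusted p = 0.021) and *Slc16a6*, of the monocarboxylate carrier family, by 0.73 ± 0.14 (adjusted p = 0.00044). For *Slc16a6* the late Th1/2 arrays ran from 8.55 to 9.71 (median 9.04) and the Th2 arrays from 7.97 to 9.49 (median 8.11). The *Slc7a3* call was lost with the mean of probes (0.45), without the Th2 arrays of experiment 1 (0.77) and without the Th1/2 arrays of experiment 2 (0.73).

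In the early window only *Slc9b2* was higher and only *Slc2a6* lower in Th1 than in Th2 cells, against 0.253% and 0.463% of all genes. The shares of genes above the level limit were 0.387% and 0.697%. *Slc2a6* ran from 7.55 to 8.56 (median 7.83) on 6 Th1 arrays and from 8.93 to 9.93 (median 9.65) on 6 Th2 arrays, without overlap. The difference was -1.62 ± 0.21 (adjusted p = 5e-07), and it was -1.39 already at 3 h. Th0 arrays ran from 7.48 to 8.46 and Th1/2 arrays from 8.76 to 9.90, so that both cultures given IL-4 lay above both others at 3 to 12 h. *Slc9b2* ran from 7.99 to 10.3 (median 9.71) in Th1 and from 7.22 to 9.66 (median 9.14) in Th2 cells, a difference of 0.68 ± 0.13 that was not called with the mean of probes (0.52), without the Th1 arrays of experiment 2 (0.43) or without the Th2 arrays of experiment 1 (0.48).

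The change of the Th1 and Th2 difference from the early to the late window was tested as an interaction. It passed at 2-fold upwards for 3 genes and downwards for 1, against 0.97% and 0.926% of all genes. Of genes above the level limit, 1.48% and 1.42% passed. *Slc7a3* went from -0.22 to 1.03, *Slc17a6* from -0.07 to 1.17, *Slc12a8* from 0.05 to 1.10 and *Slc30a2* from 0.07 to -1.65. The *Slc17a6* change was 0.56 without the Th1 arrays and 0.95 without the Th2 arrays of experiment 1, and that of *Slc12a8* 0.96 without the Th1 arrays of experiment 1 and 0.78 without the Th2 arrays of experiment 2, none of them called. The *Slc7a3* change was not called with the mean of probes (0.64), without the Th1 arrays of experiment 1 (1.43) or 2 (1.07), or without the Th2 arrays of experiment 1 (0.98). The *Slc30a2* difference was -0.69 at 35 h and -0.58 at 48 h, then -1.88 at 73 h, and reached -2.09 at 120 h. The *Slc2a6* difference stayed between -1.39 and -2.48 at all 9 times.

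**Figure D5:**
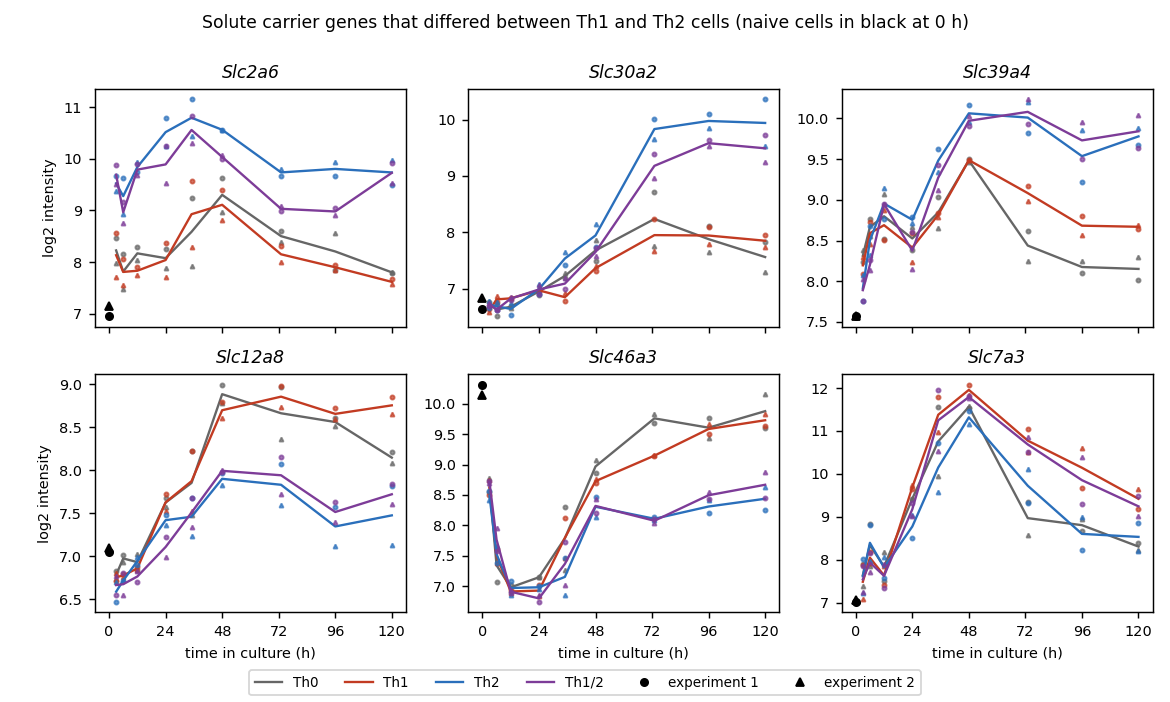
Log2 intensity against time for 6 genes called between late Th1 and Th2 cells, with lines for culture means and points for arrays. *Slc2a6* was separate from 3 h on, while Th1 and Th2 means of *Slc12a8*, *Slc46a3*, *Slc39a4* and *Slc30a2* differed by at most 0.34 up to 24 h and by at least 0.41 from 35 h on. *Slc30a2* was furthest apart from 73 h on, where its Th2 mean was 9.83 and its Th1 mean 7.95.

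Several genes have more than 1 probe. Of 136 called differences, 56 had another expressed probe of the gene. All other probes had the same sign for 51 of these, and for 30 at least 1 other probe differed by 0.5 times as much or more. No other probe reached that size in at least 1 called difference of 11 genes, namely *Slc12a7*, *Slc16a3*, *Slc16a5*, *Slc19a1*, *Slc26a6*, *Slc2a9*, *Slc37a3*, *Slc38a10*, *Slc38a2*, *Slc39a4* and *Slc7a3*. The other *Slc16a5* probe, at most 7.15 as a condition mean, differed by -0.46 late, and the other *Slc19a1* probe, at most 7.16, by 0.23 early.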

How the data were processed

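RNA of 74 samples was hybridised to Illumina Mouse Sentrix-6 arrays. The intensity table deposited by the authors holds linear values (array medians 107 to 111) that, per their methods, were background corrected and quantile normalised. Log2 was taken and nothing else was normalised. Platform annotation gave 34773 of 45135 probes 1 symbol, 18 several and 10344 none. Probes above the median of all values (log2 6.77) in at least 1 condition mean were kept, and the probe with the highest mean stood for each of 13817 genes. In R 4.3.3, limma 3.58.1 fitted 1 mean per condition (37 residual degrees of freedom) with Benjamini-Hochberg adjustment over all genes, and the fit was tested on simulated data. The simulated noise was independent between arrays, so that check cannot tell whether SE and p hold where arrays deviate together. Array number limits the precision. The labels' replicate number was taken as the number of the 2 independent experiments that the methods name, and arrays of 1 experiment and time deviated together (median correlation of between-experiment differences 0.536 over 54 pairs of cultures, 0.108 over all 666 pairs).

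The genes, lists and windows were chosen with earlier results of these data known. Classes follow the family number; after the files were seen, *Slc7a6os* and *Slc2a4rg-ps* were moved to the proteins that are no transporters. Named genes are the 6 strongest called rises and falls per window, the 5 strongest per culture comparison and direction, the 3 brightest per class, transporters known from T cells, and those nearest the level limit. *Slc15a3*, *Slc19a2*, *Slc2a9*, *Slc28a2*, *Slc28a2b* and *Slc31a1* were added after their values were seen. Promoters are from RefSeq. Alternatives covered normalisation, probe choice, filter, variance, experiment, fold limit and left-out arrays.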

Additional observations from a re-analysis of the deposited data

Results flagged for a closer look

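The difference between Th1 and Th2 cells changed from the early to the late window by more than 2-fold in 4 genes, by a test of the change itself in limma (Benjamini-Hochberg adjusted over all genes). It went up for 3 and down for 1, against 0.97% and 0.926% of all genes. Of genes above the level limit, 1.48% and 1.42% passed, so the number of solute carriers is not set apart. *Slc30a2* changed by -1.72 ± 0.17 (SE, adjusted p = 2.5e-10), with -1.79 and -1.64 in the experiments. *Slc7a3* changed by 1.25 ± 0.35 (adjusted p = 0.016), with 1.34 and 1.16. *Slc12a8* changed by 1.05 ± 0.16 (adjusted p = 5.3e-06), with 0.88 and 1.23. *Slc17a6* changed by 1.23 ± 0.28 (adjusted p = 0.0023), with 2.18 in experiment 1 and 0.28 in experiment 2. The changes of *Slc7a3*, *Slc12a8* and *Slc17a6* were not called under some of the alternatives given above. No group had the 4 to 10 arrays of a single condition that a check for a stray array needs.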

How the results depend on the processing

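Of 71 named differences, 48 were called under all 19 alternatives and none changed sign. The exchanged fold limits, applied to named differences after seeing the data, ended 15 of the 67 calls they apply to, all between cultures. The experiment as a replicate block left all 71 called and the counts at 32 early, 38 in the middle window, 32 late and 9 for late Th1 against Th2 cells. Each condition has 1 array per experiment, so this block leaves every difference as it was and could change only the SE. It does not cover arrays of 1 experiment and time that deviate together. With the mean of all expressed probes 11 named differences lost their call, and the counts fell to 1 each for late Th1 against Th0, late Th1/2 against Th2 and early Th1 against Th2 cells. With the fold limits exchanged (1.5-fold against naive cells, 2-fold between cultures), the counts were 55 early, 63 in the middle window and 65 late, 4 for Th2 against Th0, 3 for Th1/2 against Th1, 0 for Th1/2 against Th2 and 1 for early Th1 against Th2 cells. Leaving out a culture's arrays of 1 experiment gave 1 to 3 genes for late Th1 against Th0, 1 to 2 for early Th1 against Th2, 1 to 4 for Th1/2 against Th2, and 2 to 4 for the change of the Th1 and Th2 difference. The lowest counts came without Th1 or Th2 arrays of experiment 1, Th1 arrays of experiment 2 or Th1/2 arrays of experiment 2. Leaving out either naive array reversed none of the 71 named differences. Some calls of genes outside the 71 did not hold without 1 of the naive arrays. The causes were not tested. Genes near the median of all values have differences limited by background.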
